A study of Mus musculus with 3 samples.

Results

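The annexins examined here were the 8 genes Anxa1, Anxa2, Anxa3, Anxa4, Anxa5, Anxa6, Anxa7 and Anxa11, taken by symbol from the 24421 gene symbols measured in each library. RNA sequencing was done on granulocyte progenitors, the bone marrow cells committed to forming granulocytes, purified by flow cytometry out of the marrow of female mice. There were 3 libraries, 1 per group. The IRF8-deficient library came from C57BL/6 (H-2b) mice that lack IRF8, a transcription factor that favours monocyte and dendritic cell fates over neutrophil production. The 4T1-TB library came from F1 semi-syngeneic (H-2b/d) mice carrying an orthotopic graft of 4T1 cells, a mouse mammary carcinoma line, and the NTB library came from F1 semi-syngeneic (H-2b/d) mice without a tumor. Strain and IRF8 status therefore cannot be told apart in any comparison with the IRF8-deficient library. The sources used here do not state how many mice stand behind each library, their ages or where the Irf8 gene is disrupted.

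Annexins are cytosolic proteins that bind acidic phospholipids, above all phosphatidylserine, when calcium rises. They share a conserved core that attaches to the membrane and differ in their N-terminal tails, which carry the sites for partners such as S100 proteins. In neutrophils they are known for roles in granule movement and membrane fusion, and secreted annexin A1 is known for limiting neutrophil recruitment through formyl peptide receptors. Annexin A5 is widely used as a probe for phosphatidylserine on dying cells.

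The deposited unit is RPKM, in which reads are divided by gene length and by library size. Levels of different genes can thus be set side by side within a library, while comparisons between libraries depend on how library size was set. With 1 library per group there is no spread between animals, so no test was possible and no p-value is given. Intervals are 95% intervals for counting error only, exact Poisson for a level and exact binomial (Clopper-Pearson) for a ratio, from whole reads recovered from the RPKM. These recovered reads summed to 36172434 in IRF8-deficient, 23588137 in 4T1-TB and 42685396 in NTB. Calls of higher or lower needed a difference of at least 1 on the log2(RPKM + 1) scale, which is a 2-fold difference for well expressed genes and understates the difference of low ones, and the 10658 genes that reached an RPKM of 1 in any library were compared. Irf8 had an RPKM of 13.7 in IRF8-deficient and 8.60 in 4T1-TB, against 43.8 in NTB. Library sizes implied by the deposited RPKM differed from the summed reads, at 0.722 of them in IRF8-deficient, 0.941 in 4T1-TB and 1.05 in NTB. Scaling by summed reads moved the median difference of all genes by −0.48 for IRF8-deficient against NTB. It moved that median by −0.33 for IRF8-deficient against 4T1-TB and by −0.14 for 4T1-TB against NTB.

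Markers of the neutrophil lineage were high in all libraries, and the later ones differed most between them. The 6 primary granule genes, Mpo and Elane among them, summed to an RPKM of 10157 in IRF8-deficient, 21049 in 4T1-TB and 17663 in NTB. The 9 secondary granule genes, with Ltf, Camp and Ngp, summed to 54761 in IRF8-deficient, 1560.03 in 4T1-TB and 1903 in NTB. The 13 mature neutrophil genes, S100a8 and S100a9 foremost, summed to 101827, 13299 and 8858 in the same order of libraries. These sums are led by their highest genes. In 4T1-TB against NTB 3 of the 9 secondary granule genes were called higher and 0 lower, with a median difference of −0.21. Of the 13 mature neutrophil genes 7 were higher and 0 lower there, with a median of 1.05, and no primary granule gene was called. In IRF8-deficient against NTB all 9 secondary granule genes and 11 of the 13 mature ones were higher and 0 lower. The primary granule genes had 0 higher and 1 lower. Over all genes compared, 1.67% were higher in 4T1-TB than in NTB and 8.78% in IRF8-deficient. Of the 13 lists of markers, T and NK genes reached an RPKM of at most 0.353 in any library, stroma and endothelium genes 0.285 and megakaryocyte and platelet genes 1.94. Erythroid genes summed to 0.320 in IRF8-deficient, 2.76 in 4T1-TB and 5.57 in NTB, and the epithelial list, of which Krt18 was the highest member, to 0.219, 2.05 and 6.07. The lists for dendritic cells, for the B lineage and for basophils, mast cells and eosinophils each summed to 11.8 to 23.8 in every library. Monocyte and macrophage genes summed to 269.8 in IRF8-deficient, 141 in 4T1-TB and 273 in NTB. Stem and early progenitor genes summed to 60.0, 54.7 and 99.7. F13a1 gave 163, 89.8 and 151 of the monocyte sums, and Kit gave 53.2, 37.5 and 57.2 of the stem sums. Among the 9 monocyte genes compared, IRF8-deficient against NTB had 1 call of higher and 2 of lower. For 4T1-TB against NTB these calls numbered 0 and 5. The 5 stem genes compared had 0 and 3 such calls in the first comparison and 1 and 1 in the second. Cd34 was called lower in both, at 5.41 in IRF8-deficient and 8.73 in 4T1-TB against 36.9 in NTB. The part of these lists in the annexin differences below was not tested. In bulk samples such as these, fewer cells of a type and less RNA per cell cannot be told apart.

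The stretches shown first are the 250 bases before the RefSeq transcription start of Anxa1, Anxa2 and Anxa11, the members that were higher in IRF8-deficient than in NTB. They are written 5′ to 3′ on the strand of the gene, from RefSeq on GRCm38.p6, and capitals mark matches to the letters TTGCNNAA (a C/EBP motif) or TATAAA (the TATA box, searched on the plus strand in the last 50 bases).
Anxa1, chr19:20390672-20390921, minus strand: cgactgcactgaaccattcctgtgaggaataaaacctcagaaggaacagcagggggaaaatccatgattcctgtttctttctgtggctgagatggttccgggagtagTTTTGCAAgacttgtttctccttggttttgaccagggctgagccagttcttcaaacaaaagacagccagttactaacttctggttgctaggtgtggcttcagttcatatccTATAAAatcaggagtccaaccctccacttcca
Anxa2, chr9:69453433-69453682, plus strand: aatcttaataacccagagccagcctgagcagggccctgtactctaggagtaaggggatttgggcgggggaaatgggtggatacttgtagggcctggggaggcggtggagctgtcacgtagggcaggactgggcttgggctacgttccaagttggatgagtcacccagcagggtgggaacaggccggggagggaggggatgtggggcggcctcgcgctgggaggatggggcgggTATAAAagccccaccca
Anxa11, chr14:25841905-25842154, plus strand: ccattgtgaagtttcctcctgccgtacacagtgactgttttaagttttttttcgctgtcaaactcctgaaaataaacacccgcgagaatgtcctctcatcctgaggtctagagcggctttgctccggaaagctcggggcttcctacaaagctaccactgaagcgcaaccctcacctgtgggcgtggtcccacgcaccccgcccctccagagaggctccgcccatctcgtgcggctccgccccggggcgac

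The Anxa1 and Anxa2 promoters held TATAAA, from 32 to 27 bases and from 17 to 12 bases before the start, as did 2.63% of the 32851 promoters in the RefSeq table. The Anxa1 promoter also held 1 match to TTGCNNAA, on the minus strand of the gene, and 9.56% of all promoters held one on either strand. Letters for the composite ETS and IRF element, the interferon response element core and PU.1 (GAGGAAGT), searched on both strands, occurred in none of the members' 8 promoter windows, and in 2.3%, 2.98% and 2.44% of all promoters. Only the second Anxa4 window held the glucocorticoid receptor letters (TGTTCT, both strands, 16.1% of all promoters), along with its own match to TTGCNNAA. The 8 windows belong to 6 of the 8 members, since Anxa4 and Anxa7 have a pair each and Anxa3 and Anxa6 have none. These promoters also differed in base composition. Anxa1 had 2 CpG dinucleotides and 46% G or C, Anxa2 had 9 and 62.4%, and Anxa11 had 17 and 58%, against medians of 6 and 52.4% over all promoters. A match is a description of letters in a window and not a site of binding.

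Annexin RNA was higher in both IRF8-deficient and 4T1-TB than in NTB, and Anxa1 made up most of that difference. The 8 members summed to an RPKM of 2123 in IRF8-deficient, 879 in 4T1-TB and 532 in NTB, which is 3.99 times the NTB sum in IRF8-deficient and 1.65 times in 4T1-TB. Scaling by summed reads gave 2.75 and 1.48 times. The ribosomal RNA precursor Rn45s stood in the same order, at 13.7% of recovered reads in IRF8-deficient, 6.27% in 4T1-TB and 1.78% in NTB, and the 20 highest genes took 29.9%, 15.4% and 10.3%. Their part in the annexin differences was not tested, and with an equal sum without the 20 highest genes the family ratios to NTB were 3.51 in IRF8-deficient and 1.52 in 4T1-TB. Anxa1 alone took 68.9% of the family sum in IRF8-deficient, 54.5% in 4T1-TB and 33.1% in NTB. Anxa3 took 8.15%, 25.4% and 38.3% in the same libraries, and Anxa2 took 13.3%, 7.87% and 8.11%. Without Anxa1 the other members summed to 661 in IRF8-deficient, 399.7 in 4T1-TB and 356 in NTB.

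**Figure D1:**
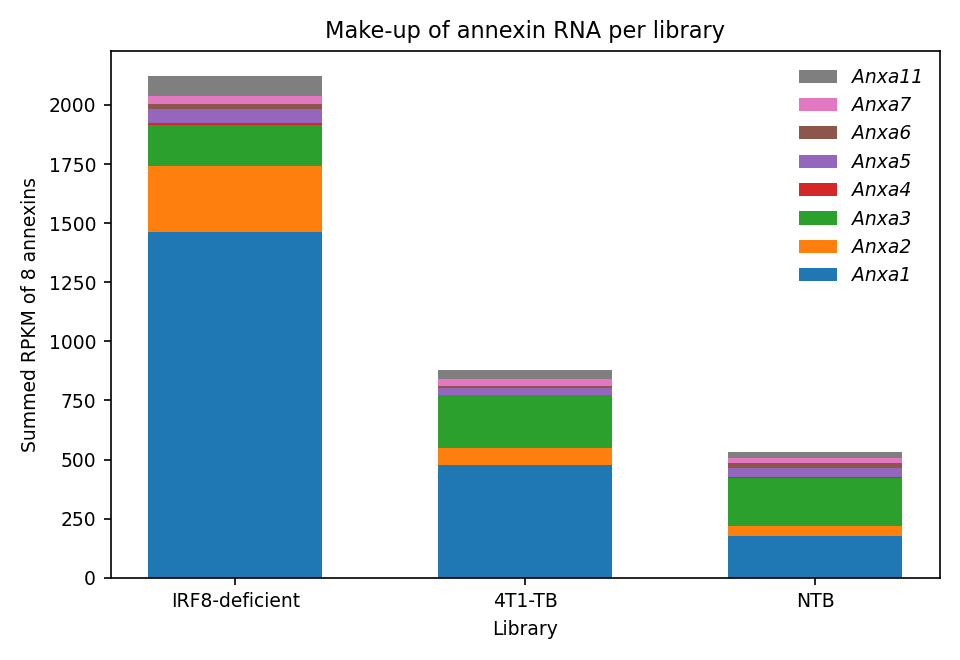
Summed RPKM of the 8 annexins (y axis) in the IRF8-deficient, 4T1-TB and NTB libraries (x axis), 1 library per bar, with a colored segment for each gene. The sums are 2123, 879 and 532, and the Anxa1 segment takes 68.9%, 54.5% and 33.1% of them.

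The members' order by level was led by different genes. Anxa3 stood first and Anxa1 second in NTB, while Anxa1 stood first in IRF8-deficient and in 4T1-TB. In IRF8-deficient the order below Anxa1 was Anxa2, Anxa3, Anxa11, Anxa5, Anxa7, Anxa6 and Anxa4. In 4T1-TB it was Anxa3, Anxa2, Anxa11, Anxa5, Anxa7, Anxa6 and Anxa4, and in NTB the order below Anxa3 and Anxa1 was Anxa2, Anxa5, Anxa11, Anxa6, Anxa7 and Anxa4. Neighbours in these orders had counting intervals that did not overlap, except Anxa5 and Anxa7 in 4T1-TB, and variation between animals is not covered by these intervals. Among all genes Anxa1 ranked 33 of 24421 in IRF8-deficient, 140 in 4T1-TB and 275 in NTB.

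**Figure D2:**
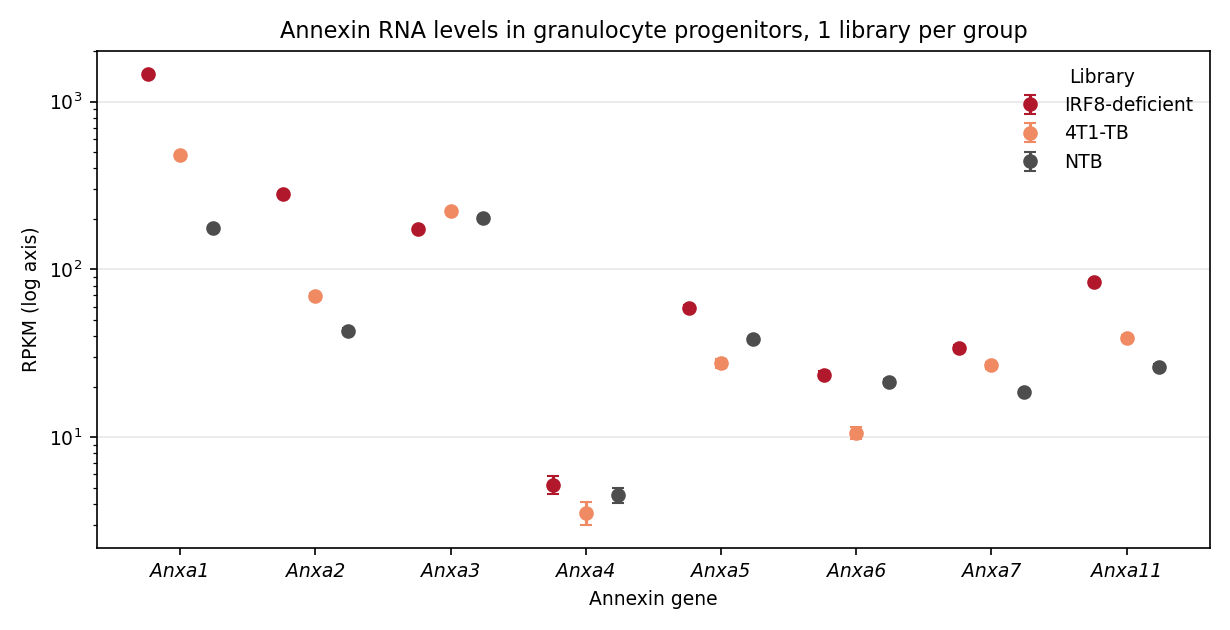
RPKM (y axis, log scale) of each annexin (x axis) in the IRF8-deficient, 4T1-TB and NTB libraries. Points are single libraries and bars are 95% Poisson intervals for counting error, mostly hidden by the points; Anxa1 stands at 1462, 479 and 176, while Anxa3 stays between 173 and 223.

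Anxa1 encodes annexin A1, a glucocorticoid-regulated protein of neutrophil granules and cytosol that acts on the formyl peptide receptor FPR2. It lies on chromosome 19 of mm10, from 20373428 to 20390944 on the minus strand (ENSMUSG00000024659.15). Its RPKM was 1462 in IRF8-deficient (interval 1450 to 1475, 53259 reads), 479 in 4T1-TB (471 to 487, 14837 reads) and 176 in NTB (173 to 179.6, 11016 reads). All 3 levels were apart from each other by more than counting error. Anxa1 was 8.29-fold higher in IRF8-deficient than in NTB (interval 8.12 to 8.47), 2.72-fold higher in 4T1-TB than in NTB (2.65 to 2.78) and 3.05-fold higher in IRF8-deficient than in 4T1-TB (2.998 to 3.11). The differences of log2(RPKM + 1) were 3.04, 1.44 and 1.61, and each stayed above 1 with pseudocounts of 0.1 and 5 and under the 3 other scalings. Ordered from the highest difference down, Anxa1 stood at place 79 of the 10658 genes in IRF8-deficient against NTB and at place 88 in 4T1-TB against NTB, and these comparisons share the NTB library.

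Anxa3 encodes annexin A3, an abundant protein of human neutrophils, where it is known to associate with granules in the presence of calcium. The gene lies on chromosome 5 from 96793339 to 96845966, on the plus strand. Its RPKM was 173 in IRF8-deficient (7215 reads), 223 in 4T1-TB (7911 reads) and 204 in NTB (14561 reads), so the most abundant annexin of NTB spanned 0.36 on the log2(RPKM + 1) scale with RPKM as deposited. The ratio to NTB was 0.85 in IRF8-deficient (interval 0.826 to 0.874) and 1.096 in 4T1-TB (1.07 to 1.13), and the difference for 4T1-TB, 0.13 with RPKM as deposited, became −0.02 under scaling by summed reads, which also placed IRF8-deficient −0.77 from NTB in place of −0.23.

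Because both genes come from the same library, the ratio of Anxa1 to Anxa3 does not depend on how libraries are scaled. Anxa1 stood at 8.45 times the Anxa3 level in IRF8-deficient (interval 8.25 to 8.66), 2.15 times in 4T1-TB (2.09 to 2.21) and 0.866 times in NTB (0.845 to 0.888). Anxa2 stood at 1.63 times the Anxa3 level in IRF8-deficient, 0.31 times in 4T1-TB and 0.212 times in NTB. The order of the 3 libraries was thus the same for both ratios. Anxa11 followed it too, at 0.488, 0.175 and 0.129 times the Anxa3 level, as did Anxa7, at 0.197, 0.120 and 0.0906 times. Relative to Anxa3 the remaining members were lowest in 4T1-TB. In the same order of libraries Anxa5 stood at 0.342, 0.123 and 0.188 times, Anxa6 at 0.136, 0.0476 and 0.105, and Anxa4 at 0.0301, 0.0157 and 0.0220. All these ratios share the Anxa3 level, so they are not independent of each other.

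Anxa2 encodes annexin A2, which links membranes to actin and, in a complex with S100A10, is known to bind plasminogen and its activator at the cell surface. It lies on chromosome 9 from 69453620 to 69491795, on the plus strand (ENSMUSG00000032231.14). The RPKM was 281 in IRF8-deficient (interval 276 to 287, 10095 reads), 69.2 in 4T1-TB (66.3 to 72.2, 2111 reads) and 43.1 in NTB (41.5 to 44.8, 2655 reads). The IRF8-deficient level stood well above the other two, which were closer together. Anxa2 was 6.52-fold higher in IRF8-deficient than in NTB (interval 6.25 to 6.81) and 4.07-fold higher than in 4T1-TB (3.88 to 4.26), and both differences passed the call under all 5 alternatives of scaling and pseudocount. In 4T1-TB it was 1.60-fold higher than in NTB (1.51 to 1.70), a difference of 0.67 that did not pass the call.

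Anxa11 and Anxa7 are the members with long N-terminal tails, through which they bind the calcium sensor ALG-2. Anxa11, on chromosome 14 from 25842156 to 25886804, encodes annexin A11, which also binds S100A6 and takes part in cytokinesis. Its RPKM was 84.5 in IRF8-deficient (82.2 to 86.8), 39.1 in 4T1-TB (37.4 to 40.8) and 26.3 in NTB (25.3 to 27.3). Anxa11 was 3.21-fold higher in IRF8-deficient than in NTB (3.07 to 3.36) and 2.16-fold higher than in 4T1-TB (2.05 to 2.27). The first call held under all 5 alternatives, while the difference from 4T1-TB fell short of the call, at 0.71, when libraries were scaled by summed reads. Against NTB the 4T1-TB level was 1.49-fold higher (1.40 to 1.57), which was not called.

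Anxa7, on chromosome 14 from 20455260 to 20480133, encodes annexin A7 or synexin, known for promoting fusion of secretory granules. It had an RPKM of 34.1 in IRF8-deficient, 26.7 in 4T1-TB and 18.4 in NTB, in the same order as Anxa11. The ratios to NTB were 1.85 in IRF8-deficient (1.75 to 1.95) and 1.45 in 4T1-TB (1.36 to 1.54), and no difference of Anxa7 passed the call. Against 4T1-TB, the IRF8-deficient difference was 0.34 and turned to −0.03 under scaling by summed reads. Within a library Anxa7 stood at 0.403 times the Anxa11 level in IRF8-deficient, 0.683 times in 4T1-TB and 0.702 times in NTB.

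Anxa5 and Anxa6 shared another pattern, with their lowest level in 4T1-TB. Anxa4, described below, also had its lowest level there, at an RPKM of 3.51. Anxa5, on chromosome 3 from 36448923 to 36475894, encodes annexin A5, which covers exposed phosphatidylserine. Its RPKM was 59.2 in IRF8-deficient (57.0 to 61.5), 27.5 in 4T1-TB (25.9 to 29.3) and 38.3 in NTB (36.9 to 39.7). Anxa6, on chromosome 11 from 54979108 to 55033445, encodes annexin A6, a member with a duplicated core that acts in endosomal and cholesterol traffic. It had 23.5 in IRF8-deficient (22.4 to 24.7), 10.6 in 4T1-TB (9.80 to 11.5) and 21.4 in NTB (20.6 to 22.2). Both genes were called higher in IRF8-deficient than in 4T1-TB, at 2.15-fold for Anxa5 (2.0001 to 2.31) and 2.22-fold for Anxa6 (2.02 to 2.43), calls that were lost with a pseudocount of 5 (differences of 0.98 and 0.87) and under scaling by summed reads (0.70 and 0.71).

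Against NTB the 4T1-TB level of Anxa6 was 2.02-fold lower (1.85 to 2.20) as RPKM, but its difference of −0.95 on the log2(RPKM + 1) scale stayed just inside the call. It reached the call with a pseudocount of 0.1 (−1.01), with an equal sum without the 20 highest genes (−1.06) and under scaling by summed reads (−1.09). Of all genes compared, 1.49% had a lower difference than Anxa6. Anxa5 was 1.39-fold lower in 4T1-TB than in NTB (1.29 to 1.49) and 1.55-fold higher in IRF8-deficient than in NTB (1.47 to 1.63), and neither passed the call. For Anxa6 the IRF8-deficient level was 1.098 times that of NTB (1.03 to 1.17), a difference of 0.13 that turned to −0.05 with an equal sum without the 20 highest genes and to −0.38 under scaling by summed reads. This difference stood 0.15 above the median of all genes as deposited and 0.14 and 0.12 above it under these scalings, which move gene and median together.

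Anxa4, on chromosome 6 from 86736840 to 86793584, encodes annexin A4, best known from the membranes of secretory epithelia. It was the lowest of the 8 members in every library, with an RPKM of 5.20 in IRF8-deficient (4.601 to 5.86, 272 reads), 3.51 in 4T1-TB (2.98 to 4.10, 156 reads) and 4.48 in NTB (4.05 to 4.94, 402 reads). The interval for IRF8-deficient overlapped that for NTB, and no difference passed the call. The difference of 0.18 between IRF8-deficient and NTB turned to −0.26 under scaling by summed reads. Of the other annexins in the files, Anxa9, an atypical member, had an RPKM of 2.07 in IRF8-deficient, 4.69 in 4T1-TB and 4.57 in NTB, with differences of −0.86 for IRF8-deficient against NTB and −0.89 against 4T1-TB. These were just inside the call, and 2 of the 5 alternatives of scaling and pseudocount called Anxa9 lower in each, at down to −1.22 and −1.14. Between 4T1-TB and NTB its difference was 0.03. Anxa8, Anxa10 and Anxa13 were listed at 0 in all 3 libraries.

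Set against all genes, 3 of 8 members (Anxa1, Anxa2 and Anxa11) were higher and 0 lower in IRF8-deficient than in NTB, where 8.78% of the genes compared were called higher and 5.73% lower. The median difference was 0.73 over the members and −0.02 over all genes. In 4T1-TB against NTB 1 of 8 members, Anxa1, was higher and 0 lower, beside 1.67% and 1.35% of genes, with medians of 0.32 and 0.01. In IRF8-deficient against 4T1-TB 5 of 8 (Anxa1, Anxa2, Anxa5, Anxa6 and Anxa11) were higher and 0 lower, beside 8.83% and 7.07%, and the medians were 1.08 for members and −0.0001 for all genes. All 8 members passed the filter on low values in every comparison. The split of calls over all genes turned toward lower under scaling by summed reads. It gave 448 higher against 1869 lower for IRF8-deficient against NTB (936 and 611 with RPKM as deposited), 147 against 188 for 4T1-TB against NTB (178 and 144) and 491 against 1478 for IRF8-deficient against 4T1-TB (941 and 754). Since the comparisons share libraries pairwise, their counts are not independent of each other.

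**Figure D3:**
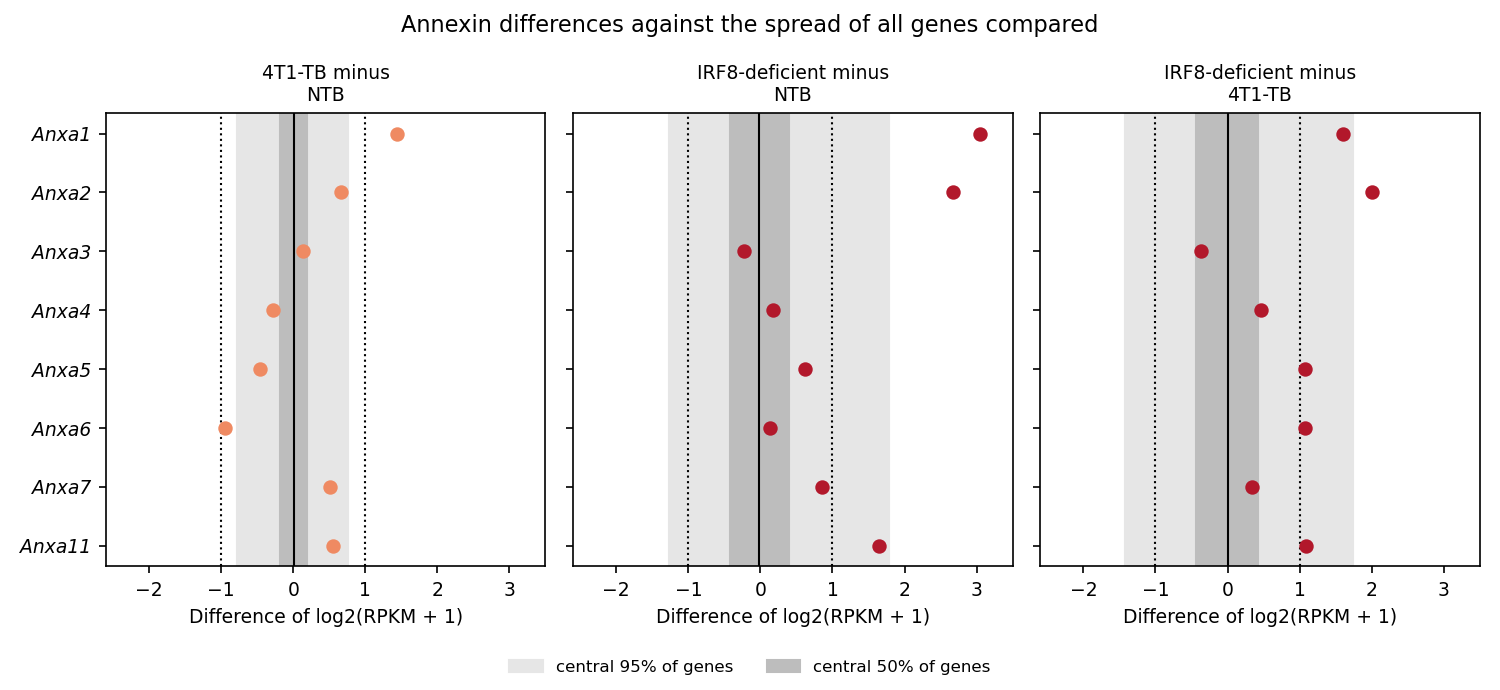
Difference of log2(RPKM + 1) (x axis) of each annexin (y axis) in 4T1-TB minus NTB, IRF8-deficient minus NTB and IRF8-deficient minus 4T1-TB, with gray bands for the central 95% and 50% of the 10658 genes compared, a black line at their median and dotted lines at the call. Anxa1 and Anxa2 lie outside the central 95% in IRF8-deficient minus NTB (−1.27 to 1.78), and in 4T1-TB minus NTB (−0.78 to 0.77) Anxa1 lies above it and Anxa6 below it.

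The scaling of the libraries moved the members together and left Anxa1, Anxa2 and Anxa11 above the call in IRF8-deficient against NTB. Under scaling by summed reads the differences for these genes were 2.51, 2.14 and 1.12. Anxa5, at 0.62 with RPKM as deposited, stood at 0.09. Relative to the median of all genes, which moved by a like amount, Anxa5 stood at 0.59 and Anxa1 at 3.01. A scaling applies the same factor to every gene of a library. A place relative to this median can therefore hardly change and is no check on scaling. Of the members whose sign turned under that scaling, Anxa6 stood 0.12 and Anxa4 0.24 above this median. Anxa7 stood 0.30 above it in IRF8-deficient against 4T1-TB, and Anxa3 0.11 in 4T1-TB against NTB.

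**Figure D4:**
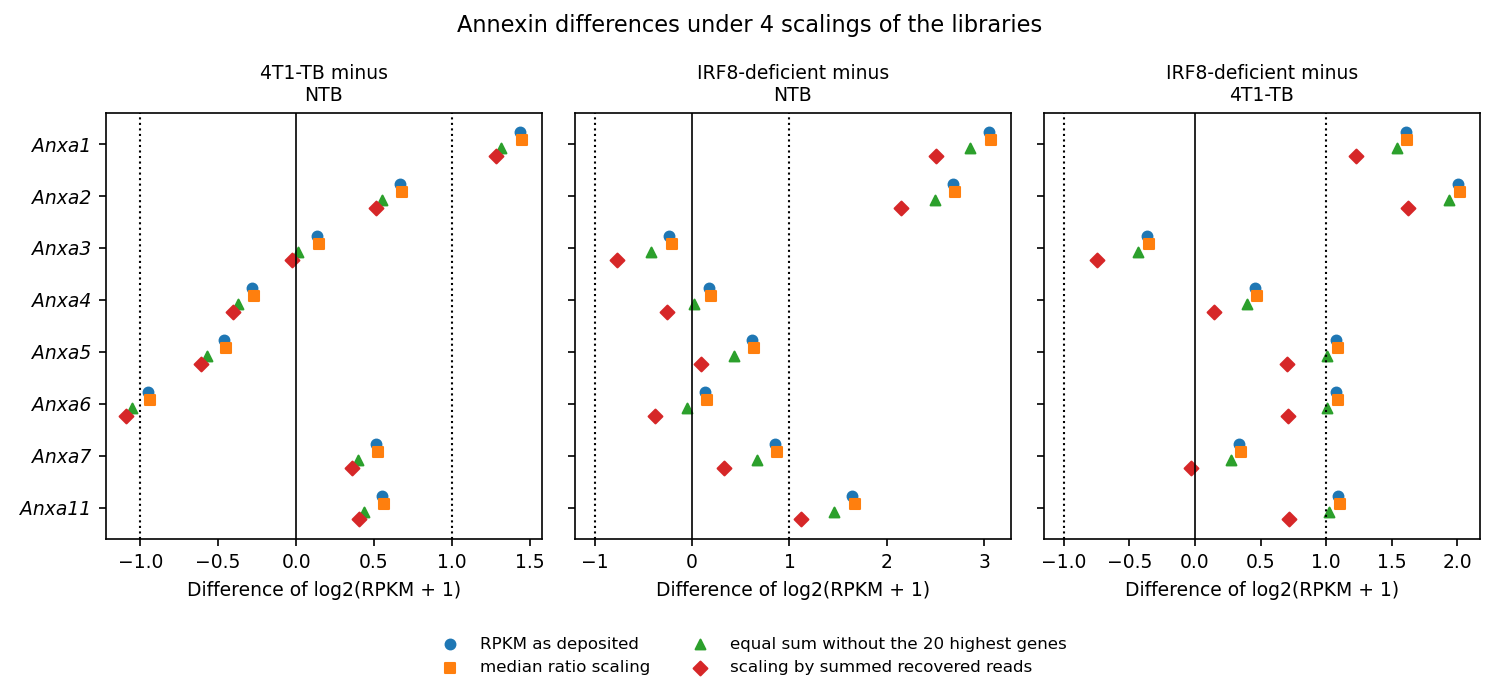
Difference of log2(RPKM + 1) (x axis) of each annexin (y axis) for the same 3 comparisons, with a marker for each of 4 scalings of the libraries and dotted lines at the call. Scaling by summed recovered reads gives the lowest values, at 2.51 for Anxa1 and −0.77 for Anxa3 in IRF8-deficient minus NTB.

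The genes most like Anxa1, Anxa2 and Anxa11 were found by the distance between log2(RPKM + 1) patterns over the 3 libraries, after each gene's mean was subtracted, among genes reaching an RPKM of 5. With 3 points per gene such likeness is a loose description. Nearest to Anxa1 were Pilra, an inhibitory receptor gene of myeloid cells (34.0 in IRF8-deficient, 11.2 in 4T1-TB and 3.502 in NTB, distance 0.0734), the complement C5a receptor gene C5ar1 (27.4, 8.97 and 2.23, distance 0.133), Glipr2, Slfn4 and Mxd1, a repressor that pairs with MAX. Nearest to Anxa2 were Il1rn, which encodes the interleukin-1 receptor antagonist (7.49 in IRF8-deficient, 1.19 in 4T1-TB and 0.324 in NTB, distance 0.0447), the cell cycle inhibitor gene Cdkn2d (71.0, 17.4 and 10.8, distance 0.0509), Scrg1, Fyb and Ptafr, the receptor for platelet-activating factor. Anxa11 was followed by Cep19 (31.2 in IRF8-deficient, 14.3 in 4T1-TB and 9.83 in NTB, distance 0.0555), the mannose 6-phosphate receptor gene Igf2r (24.3, 10.6 and 7.40), Ppp1r18, Hacd4 and Hrh2. Among the members themselves the closest pair was Anxa5 and Anxa6 (distance 0.398). Next came Anxa4 with Anxa5 (0.448), Anxa4 with Anxa6 (0.525) and Anxa1 with Anxa2 (0.543).

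Genes that act with annexins or are related to them were taken from 10 lists holding 77 genes, of which 48 reached the filter. The lists include the other annexins, with Anxa9 reaching the filter, the copines and the glucocorticoid response genes. In IRF8-deficient against NTB 16 of the 48 (33.3%) were higher and 2 (4.17%) lower, and the median difference was 0.69. In 4T1-TB against NTB 6 (12.5%) were higher and 3 (6.25%) lower, the median being 0.11, and in IRF8-deficient against 4T1-TB 11 (22.9%) were higher and 2 lower, the median being 0.51. The percentages over all genes given above are the background for these counts. Scaling by summed reads left 8 of the 16 genes called higher and gave 8 lower in IRF8-deficient against NTB, out of 47 compared, with a median of 0.22. For 4T1-TB against NTB it gave 4 higher, 4 lower and a median of −0.04, and for IRF8-deficient against 4T1-TB 7 higher and 6 lower. With a pseudocount of 5, 12 were higher and 0 lower in IRF8-deficient against NTB, and 3 higher and 1 lower in 4T1-TB against NTB.

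Of the S100 genes whose products bind annexin tails, 3 of 4 were higher in IRF8-deficient than in NTB, and in 4T1-TB 1 was higher and 1 lower. S100a6, whose product binds annexin A11, had an RPKM of 99.1 in IRF8-deficient and 51.7 in 4T1-TB, against 4.88 in NTB, so it was 20.3-fold (17.3 to 24.1) and 10.6-fold higher (8.94 to 12.7). S100a11, which encodes a partner of annexin A1, had 447 in IRF8-deficient, 284 in 4T1-TB and 209.5 in NTB, and S100a4 had 11.6, 6.68 and 4.83. Both were called only in IRF8-deficient against NTB, and under scaling by summed reads those differences were below the call. The S100a11 call held under 3 of 5 alternatives and the S100a4 call under 2.

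S100a10, which encodes the partner of annexin A2, had its highest level in NTB, where Anxa2 had its lowest. Its RPKM was 17.0 in IRF8-deficient (289 reads) and 9.42 in 4T1-TB (136 reads), against 24.8 in NTB (723 reads). In 4T1-TB it was lower by 1.31 on the log2(RPKM + 1) scale, a call that held under all 5 alternatives, and in IRF8-deficient its difference of −0.52 was not called. Within each library Anxa2 stood at 16.5 times the S100a10 level in IRF8-deficient (14.7 to 18.6), 7.34 times in 4T1-TB (6.17 to 8.80) and 1.74 times in NTB (1.60 to 1.89). These intervals did not overlap, and the ratio does not depend on library scaling.

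The formyl peptide receptors, through which annexin A1 acts, were higher in IRF8-deficient and in 4T1-TB than in NTB. Fpr2 had an RPKM of 103 in IRF8-deficient and 11.7 in 4T1-TB, against 1.58 in NTB, or 64.9-fold (52.7 to 80.7) and 7.37-fold higher (5.83 to 9.38). Fpr1 had 21.1 in IRF8-deficient and 5.58 in 4T1-TB, against 0.422 in NTB from 25 reads, and its call in 4T1-TB fell just short with a pseudocount of 5 (0.96). Both are also on the list of mature neutrophil markers above. Fpr3, Fpr-rs3 and Fpr-rs4 had at most 1 read in any library.

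The penta-EF-hand list holds ALG-2 (Pdcd6), which binds annexins A7 and A11, and sorcin (Sri), which binds annexin A7, with relatives and partners. In IRF8-deficient against NTB 2 of 7 were higher. They were Capns1, the small calpain subunit (170 in IRF8-deficient, 70.6 in 4T1-TB and 65.4 in NTB), and Gca, the neutrophil protein grancalcin (70.6, 49.1 and 31.8). Both calls were lost under scaling by summed reads, and of 5 alternatives 4 kept the Capns1 call and 3 the Gca call. Pdcd6 itself had 36.2 in IRF8-deficient, 40.5 in 4T1-TB and 34.9 in NTB, and Sri had 79.6, 47.5 and 41.8. None of the 7 was called in 4T1-TB against NTB, and Capns1 alone was called, higher, in IRF8-deficient against 4T1-TB, again lost under scaling by summed reads.

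In the plasminogen system 5 of 9 genes could be compared, and in IRF8-deficient against NTB 2 were higher and 1 lower. Plaur, the urokinase receptor gene, had an RPKM of 83.9 in IRF8-deficient, 8.26 in 4T1-TB and 8.86 in NTB, and was 9.47-fold higher in IRF8-deficient than in NTB (8.65 to 10.4). Plau, the urokinase gene, had 23.96 in IRF8-deficient, 2.75 in 4T1-TB and 5.30 in NTB. Both were also called higher in IRF8-deficient against 4T1-TB, and these 4 calls held under all 5 alternatives. Serpine2, which encodes a protease inhibitor, was lower (11.3 in IRF8-deficient and 19.0 in 4T1-TB, against 27.6 in NTB), which fell just short of the call with a pseudocount of 5. Plgrkt, a plasminogen receptor gene, had 19.0 in IRF8-deficient, 25.7 in 4T1-TB and 26.6 in NTB, and none of the 5 was called in 4T1-TB against NTB.

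Of the membrane repair genes 3 of 7 could be compared, and Capn1, the calpain 1 gene, was higher in IRF8-deficient (79.0) than in 4T1-TB (38.4) and in NTB (32.0), which fell below the call against both under scaling by summed reads. The Capn1 call held under 2 of 5 alternatives against 4T1-TB and under 4 against NTB. Ahnak, a large scaffold gene whose product binds annexin A2, had 7.24 in IRF8-deficient, 3.42 in 4T1-TB and 6.48 in NTB. Of 8 genes compared that move phosphatidylserine between membrane leaflets, 2 were higher in 4T1-TB than in NTB, the flippase gene Atp11a (34.4 in 4T1-TB and 15.3 in NTB) and the scramblase-family gene Plscr1 (31.9 and 15.3). Scaling by summed reads took both below the call, and of 5 alternatives 3 kept the Atp11a call and 2 the Plscr1 call. None of the 8 was called in either comparison of IRF8-deficient, where Atp11b had 86.3 and Tmem30a, the flippase subunit, 59.7.

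Among 14 genes for receptors and bridging proteins that recognise phosphatidylserine, 6 could be compared. Cd300lf, a phosphatidylserine receptor of myeloid cells, had an RPKM of 32.3 in IRF8-deficient and 16.2 in 4T1-TB, against 2.75 in NTB, and was 11.7-fold (10.2 to 13.5) and 5.89-fold higher (5.07 to 6.87). The integrin genes Itgb3 (12.1 in IRF8-deficient, 0.873 in 4T1-TB and 2.64 in NTB) and Itgb5 (4.12, 0.727 and 1.42) were higher in IRF8-deficient than in both other libraries. Against NTB the Itgb5 call held under 2 of 5 alternatives, and scaling by summed reads and a pseudocount of 5 were among those that lost it. Against 4T1-TB it held under 4 of 5 and was lost with a pseudocount of 5. Mfge8, which encodes a bridging protein, had 0.793 in IRF8-deficient and 0.614 in 4T1-TB, against 2.57 in NTB. It was called lower in 4T1-TB, and its IRF8-deficient difference of −0.995 missed the call but was called under 3 of 5 alternatives. Pros1, the protein S gene, had 0.468 in IRF8-deficient, 2.52 in 4T1-TB and 1.93 in NTB. It was called lower in IRF8-deficient against 4T1-TB, and its difference of −0.998 from NTB likewise missed the call but was called under 3 of 5. The calls of both genes were lost with a pseudocount of 5. The receptor genes Mertk, Axl and Tyro3 stayed at or below an RPKM of 0.176 in every library.

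Copines are another family of calcium-dependent phospholipid-binding proteins. In IRF8-deficient against NTB 2 of 4 compared were higher, Cpne3 (167 in IRF8-deficient, 43.0 in 4T1-TB and 39.0 in NTB) and Cpne2 (58.1, 29.7 and 28.3), whereas in 4T1-TB against NTB none was called. The Cpne3 call held under all 5 alternatives and the Cpne2 call under 2. Of 8 glucocorticoid response genes, listed because Anxa1 is a known target of that hormone, 1 was higher and 1 lower in IRF8-deficient than in NTB. These were Nr3c1, the glucocorticoid receptor gene (39.6 in IRF8-deficient, 16.7 in 4T1-TB and 17.8 in NTB, a call held under 2 of 5 alternatives), and Zbtb16 (0.554, 1.198 and 4.82). Zbtb16 was also the 1 gene of the list called, lower, in 4T1-TB against NTB, and both of its calls were lost with a pseudocount of 5. Against 4T1-TB, Nr3c1 and Tsc22d3, which encodes the glucocorticoid-induced leucine zipper (34.6 in IRF8-deficient and 14.6 in 4T1-TB), were higher in IRF8-deficient, which scaling by summed reads took below the call, and Per1 was lower (2.04 in IRF8-deficient and 5.61 in 4T1-TB), which a pseudocount of 5 did. Fkbp5, a common reporter of glucocorticoid action, had 32.1 in IRF8-deficient, 36.8 in 4T1-TB and 33.0 in NTB.

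**Figure D5:**
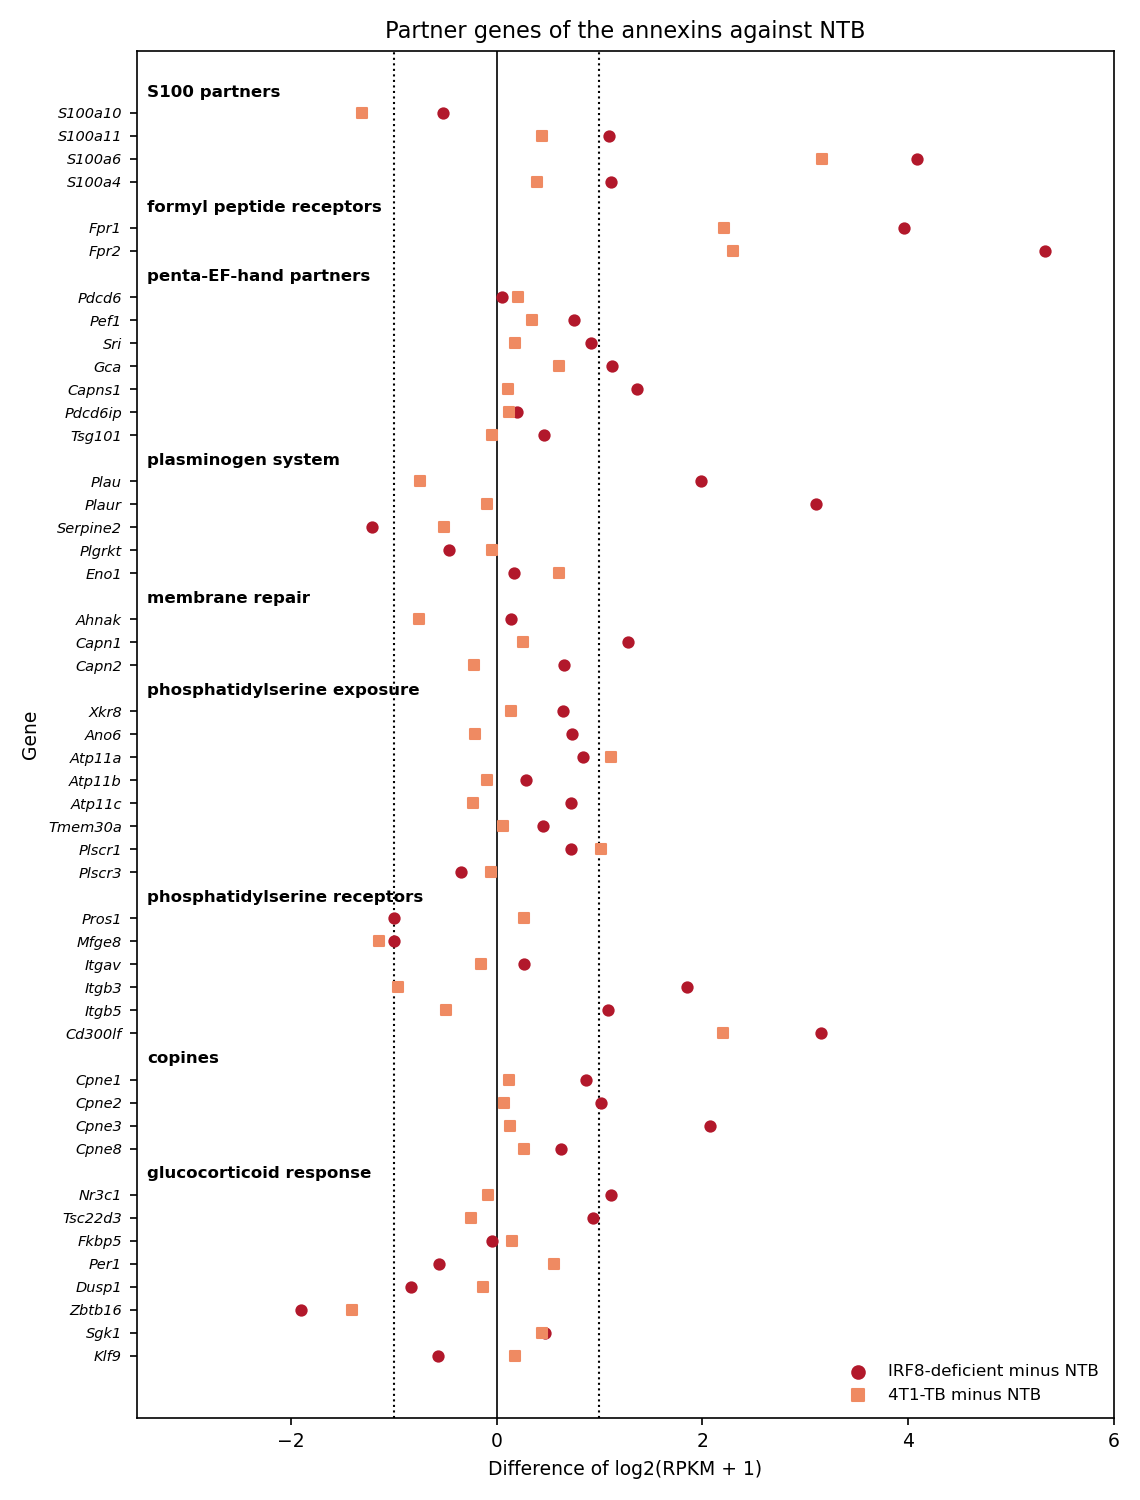
Difference of log2(RPKM + 1) against NTB (x axis) of each partner gene compared except Anxa9 (y axis, grouped by list), with circles for IRF8-deficient minus NTB and squares for 4T1-TB minus NTB and dotted lines at the call. Fpr2 (5.33 and 2.29) and S100a6 (4.09 and 3.17) lie farthest to the right, and S100a10 lies left of 0 for both (−0.52 and −1.31).

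The spans of Anxa1, Anxa2, Anxa4 and Anxa11 overlap those of noncoding genes annotated on the opposite strand in GENCODE M21. The sources used here do not state strandedness, so reads from bases shared by such pairs cannot be told apart. The span of Anxa3 overlaps that of Gm42603 on the same strand, where strandedness would not separate them either. The partner of Anxa1, 1500015L24Rik, had 2 reads in IRF8-deficient and 0 in 4T1-TB and NTB, where 0 reads allow an RPKM of up to 0.214 and 0.106 by the upper end of the Poisson interval. The gene lengths implied by the RPKM were 1395 bases for Anxa1, 1374 for Anxa2, 1597 for Anxa3 and 2395 for Anxa11. These compare with 1674, 1447, 1595 and 2394 for the merged exons of GENCODE M21 transcripts that carry a RefSeq match.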

How the data were processed

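RNA was measured in sorted granulocyte progenitors, in 1 library per group. The deposited values are RPKM from the authors for 24421 gene symbols. Per the submitters' processing notes, the build was mm10 and the tools included edgeR 3.12.1, HTSeq 0.6.1, Picard 1.97, TopHat2 2.0.13, cutadapt 1.2.1 and CASAVA 1.8.2, without the role of each. The sources used here do not state the annotation, the strandedness or how library sizes were set. RPKM was used as deposited. Whole reads were recovered for 15158 genes from the exact ratios of RPKM between libraries and from the library size at which implied gene lengths are whole, and a factor shared by all libraries was set with reference lengths, so the check on lengths is not independent. Lengths were whole to within 0.01 for 89% of genes with at least 5 reads before that factor was applied. Reads served for depth, intervals and 1 scaling. Intervals cover counting error only.

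Differences are of log2(RPKM + 1) over the 10658 genes that reached an RPKM of 1 in any library, called at 1 or more in size, with no test. Alternatives were pseudocounts of 0.1 and 5, 3 other scalings, no filter or an RPKM of at least 5, and calls at 1.5-fold and 4-fold. Named were all 8 members, Irf8, the called genes of 10 partner lists or else their 2 highest, the leading genes of 13 marker lists, and the 5 genes most like each of the 3 members with the widest range. The TATA box letters were added to the motifs later, and genes such as Pdcd6, Sri, Ahnak, Fkbp5 and the low receptor genes were named after their values were seen. The members and lists were chosen with earlier results of these data known. Steps were tested on simulated data. Python 3.11.15 was used with pandas 2.3.3, scipy 1.17.1, matplotlib 3.10.9 and numpy 2.4.6, and coordinates come from GENCODE M21 on mm10 and RefSeq on GRCm38.p6.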

Additional observations from a re-analysis of the deposited data

How the results depend on the processing

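No paired analysis was possible because each group has 1 library and the labels carry no replicate numbers, and no replicate could be left out. Of 120 member differences under the 5 alternatives of pseudocount and scaling, 76 stayed within their counting interval, 44 moved outside it and 0 called ones changed sign. Of 534 counts in partner lists 444 stayed within 1.5 times and 90 moved. Results are given as higher then lower, where a count moved by more than 1.5 times. With a pseudocount of 0.1, 282 and 354 genes were called in 4T1-TB against NTB in place of 178 and 144, with Anxa6 as 1 member lower in place of 0, and 1071 were lower in IRF8-deficient against NTB in place of 611. With a pseudocount of 5 the counts were 65 and 21 for 4T1-TB against NTB, 526 and 149 for IRF8-deficient against NTB (936 and 611 as reported), and 475 and 311 for IRF8-deficient against 4T1-TB (941 and 754 as reported), where 3 members were higher in place of 5. Both the equal sum without the 20 highest genes and scaling by summed reads made Anxa6 the 1 member lower in 4T1-TB against NTB. Scaling by summed reads gave 448 and 1869 genes in IRF8-deficient against NTB, and 491 and 1478 in IRF8-deficient against 4T1-TB, where 2 members, Anxa1 and Anxa2, were higher. Taking an RPKM of at least 5 left 115 and 74 in 4T1-TB against NTB. Calls at 4-fold numbered 47 and 5 in 4T1-TB against NTB, with 0 members higher, 203 and 41 in IRF8-deficient against NTB, and 178 and 50 in IRF8-deficient against 4T1-TB, with 1 member, Anxa2. Calls at 1.5-fold numbered 466 and 530 in 4T1-TB against NTB, with 2 members higher and 1 lower, 1859 and 1778 in IRF8-deficient against NTB, with 5 members higher, and 1987 and 1927 in IRF8-deficient against 4T1-TB. The causes of the shifts with scaling were not tested. Counting error was largest for Anxa4, where 156 reads limited the 4T1-TB level, and variation between animals is not covered.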
